A study of Mus musculus with 4 samples.

Results

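Receptors for the constant part of IgG, the adaptor chains through which they and related myeloid receptors signal, and the kinase behind those adaptors were followed across 4 mouse heart arrays. The 8 genes were Fcgr1, Fcgr3, Fcgr4, Fcgr2b, Fcer1g, Tyrobp, Trem2 and Syk. They were chosen with earlier results of these data known. Each was taken by name, from a probe set whose sole gene symbol in the array annotation is that gene. All 8 were found among 19938 named genes, each with 1 probe set, and all 8 passed the filter on dim signals. That filter dropped probe sets whose mean over the 4 arrays lay below the 25th percentile of all probe sets (4.10 on the log2 scale), leaving 16708 genes for testing.

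The arrays profiled total RNA from 3 hearts labelled MAFbx KO and 1 wildtype heart, all taken 1 week after pressure overload by TAC (transverse aortic constriction, an operation that narrows the aorta). MAFbx, encoded by Fbxo32, is an F-box protein that selects substrates for a ubiquitin ligase in muscle, and the comparison asks what its loss alters in the loaded heart. Both genotypes had the operation, and hearts without it were not analysed here. Strain, age, sex and the design of the knockout allele are not stated in the labels, which also do not say outright that the numbered hearts are separate animals. All levels are log2 values from RMA, the standard summary of Affymetrix probe sets, and every log2 fold change is knockout minus wild type. With a lone wild type array, all statistical spread comes from the 3 knockout arrays.

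An Fc gamma receptor binds antibody that has coated a particle or a cell, and crosslinking of the receptor starts the response. The activating receptors Fcgr1, Fcgr3 and Fcgr4 pair with Fcer1g, the common gamma chain, which carries an ITAM (immunoreceptor tyrosine-based activation motif). Tyrobp, also called DAP12, is a second ITAM adaptor and serves Trem2 among many other myeloid receptors. Src family kinases phosphorylate the motif, and Syk docks on it and carries the signal on. Fcgr2b acts as the brake, because its own tail holds an inhibitory motif, the ITIM, that recruits phosphatases. In the heart these genes are mainly known from macrophages and other myeloid cells.

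Bases just before the annotated starts of the receptor and Fcer1g genes are shown because the family is a textbook target of PU.1, a myeloid ETS factor encoded by Spi1. The windows are the 100 bases before a RefSeq start on GRCm38.p6, read 5′ to 3′ along the strand of the gene, and capitals mark the purine box GAGGAA, searched on both strands, which appears as TTCCTC when it lies on the opposite strand.
Fcgr1, chr3:96293970-96294069, - strand: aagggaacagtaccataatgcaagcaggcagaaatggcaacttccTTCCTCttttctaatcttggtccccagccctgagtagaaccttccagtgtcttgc
Fcgr3, chr1:171059404-171059503, - strand: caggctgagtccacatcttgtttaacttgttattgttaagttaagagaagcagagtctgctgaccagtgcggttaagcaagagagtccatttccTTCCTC
Fcgr4, chr1:171018826-171018925, + strand: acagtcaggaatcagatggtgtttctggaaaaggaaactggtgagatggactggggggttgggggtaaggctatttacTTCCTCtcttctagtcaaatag
Fcgr2b, chr1:170976072-170976171, - strand: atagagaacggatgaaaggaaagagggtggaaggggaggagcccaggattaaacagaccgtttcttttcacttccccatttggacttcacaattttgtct
Fcer1g, chr1:171234350-171234449, - strand: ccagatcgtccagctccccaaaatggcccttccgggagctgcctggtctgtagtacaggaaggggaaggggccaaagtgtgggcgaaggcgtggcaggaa
Trem2, chr17:48346301-48346400, + strand: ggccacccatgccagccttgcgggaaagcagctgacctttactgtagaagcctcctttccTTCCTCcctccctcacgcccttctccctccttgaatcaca
The RefSeq promoter table matched 7 of the 8 genes, with 9 starts in all. The box was present before a start of 5 of the 7 genes, and before a start of 11.2% of all 27025 genes in the table. The second start of Fcgr3 lies close to the first, so its window overlaps the one shown and holds the same box. Of the 2 Syk starts 1 had the box. The windows of Fcgr3 and Syk lie inside the annotated gene, since other transcripts begin further upstream, and the other windows lie outside it. Fcgr2b and Fcer1g had no match in these windows and Trem2 had one.

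Some facts of the whole series bear on every value below. The gene encoding MAFbx, Fbxo32, read 5.65, 5.61 and 5.56 in knockouts 1, 2 and 3, against 7.54 in the wild type heart. The median of the genes tested was 6.57 to 6.62 on every array. Xist, the RNA of the inactive X chromosome, read 9.18, 9.52 and 3.20 in knockouts 1, 2 and 3, against 4.13 in the wild type heart. The Y-linked gene Eif2s3y ran the other way, with 3.31, 3.64 and 8.49, against 8.57. Knockout 3 is thus the sole knockout array that shares the sex-linked pattern of the wild type array, and its difference from wild type 1 is given beside the main results.

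None of the 8 genes passed an adjusted p of 0.05 in limma over all genes (adjusted p = 0.390 to 0.997), a level that 0.00599% of genes reached. At an unadjusted p under 0.05, 6 of the 8 genes were lower in the knockout hearts and 0 higher, where 3.87% of all genes tested were lower and 1.72% higher. In 7 of the 8 genes all 3 knockout arrays read below the wild type array, a position that 24.2% of all genes had. Trem2 was the exception. The median log2 fold change of the 8 genes was -0.83, against 0.00 over all genes tested. Because the 8 genes and the lists below were chosen with earlier results of these data known, the shares over all genes give scale only. They are no test of the set. Without knockout 1, 2 or 3 the number of these genes at an unadjusted p under 0.05 in limma was 2, 3 and 5. With high or low Xist as a covariate, the fit compares knockout 3 with wild type 1 alone. Its log2 fold changes ran from -0.97 for Fcgr1 to -0.02 for Trem2. The spread of that fit comes from knockouts 1 and 2, so no count is given.

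**Figure D1:**
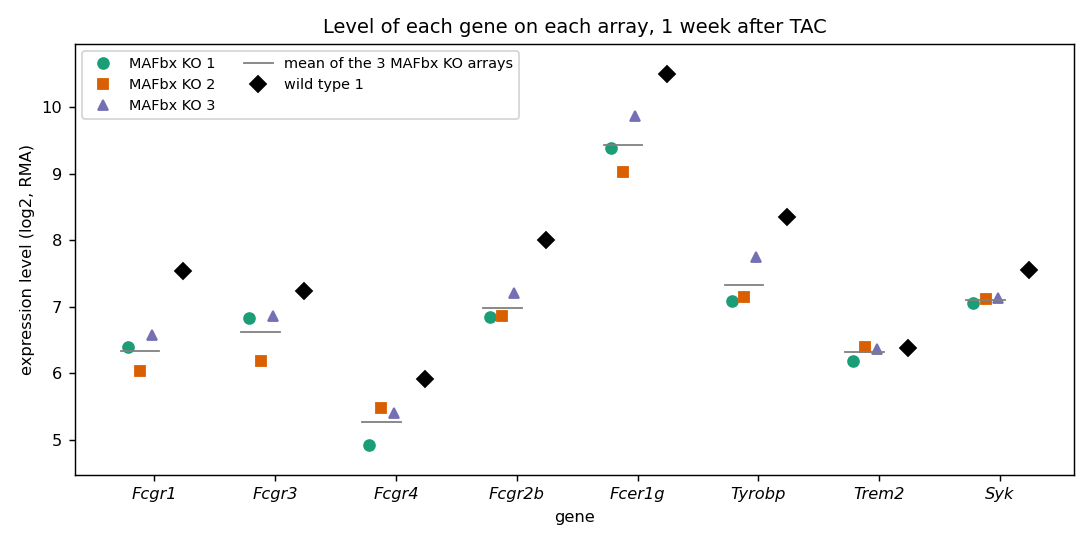
Log2 level of each gene on each array, with the 3 MAFbx knockout arrays as coloured symbols, their mean as a grey line and the wild type array as a black diamond to their right. For 7 genes the diamond lies above all 3 coloured symbols, and for Trem2 it lies among them. Heights of different genes are not comparable, since each probe set has its own response.

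Fcgr1, the high-affinity IgG receptor, had the largest difference of the 8 genes. It read 6.39, 6.04 and 6.57 in knockouts 1, 2 and 3, against 7.54 in the wild type heart. The knockout arrays spanned 0.53 and the nearest of them lay 0.97 below the wild type array, so the gap between genotypes exceeded the spread within the knockouts. The knockout mean was 6.33 ± 0.27 (SD, n = 3), which is 2.31-fold lower in the knockout hearts. The log2 fold change was -1.21 (SE 0.24, 95% interval -1.76 to -0.65, limma adjusted p = 0.390).

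Fcgr3, the low-affinity activating receptor found on most myeloid cells, had 6.83, 6.18 and 6.86 in the knockout hearts, against 7.23 in the wild type heart. All 3 knockout arrays lay lower, but knockouts 1 and 3 were within 0.40 of the wild type value while the knockouts themselves spanned 0.68. The log2 fold change was -0.61 (SE 0.29), and its 95% interval, -1.29 to 0.08, included 0. The limma adjusted p was 0.911.

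Fcgr4, an activating receptor of mouse monocytes, macrophages and neutrophils, lay nearest to the filter on dim signals. Its levels were 4.92, 5.47 and 5.40 in the knockout hearts, against 5.92 in the wild type heart. Relative to wild type, knockout 1 stood at -1.0 and knockouts 2 and 3 at -0.45 and -0.52, so the groups did not overlap. The log2 fold change was -0.66 (SE 0.25, 95% interval -1.25 to -0.07, limma adjusted p = 0.826).

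Fcgr2b, the inhibitory receptor, stood lower as well. Its levels were 6.85, 6.86 and 7.21 in the knockout hearts, against 8.0 in the wild type heart. The knockouts spanned 0.36 and the highest of them lay 0.79 under the wild type array. The knockout mean of 6.97 ± 0.21 (SD, n = 3) was 2.04-fold lower. The fold change came to -1.03 on the log2 scale (SE 0.21, 95% interval -1.52 to -0.53, limma adjusted p = 0.391).

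The brake and the activating receptors were set against each other by taking, on each knockout array, the difference from wild type of one gene minus that of the other. For Fcgr1 against Fcgr2b this was 0.00, -0.36 and -0.18 in knockouts 1, 2 and 3. The pair thus moved by nearly equal amounts in knockout 1 and Fcgr1 went somewhat lower in the others. For Fcgr3 against Fcgr2b it was 0.75, 0.09 and 0.42, and for Fcgr4 against Fcgr2b 0.15, 0.69 and 0.27. Fcgr2b therefore stood further below its wild type level than Fcgr3 and Fcgr4 did on every knockout array. Averaged over the 3 activating receptors the value was 0.30, 0.14 and 0.17, a mean of 0.20 ± 0.09 (SD, n = 3), given without a test. All of these values use the same wild type array, and the SD leaves out its error. Fcgr2b and Fcgr3 encode closely related extracellular parts, and cross-hybridisation between their probe sets was not tested.

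Fcer1g, the gamma chain that the activating receptors need at the cell surface, read 9.39, 9.02 and 9.87 in the knockout hearts, against 10.50 in the wild type heart. Its knockout arrays spanned 0.85, the widest range of the 8 genes, and yet the highest of them lay 0.63 below the wild type array. The knockout mean was 9.43 ± 0.43 (SD, n = 3) and 2.10-fold lower. On the log2 scale the difference from wild type was -1.07 (SE 0.31, 95% interval -1.81 to -0.34, limma adjusted p = 0.611).

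Tyrobp, the adaptor of Trem2 and of many lectin-like receptors, had 7.09, 7.15 and 7.75 in the knockout hearts, against 8.34 in the wild type heart. Knockouts 1 and 2 lay close together and knockout 3 lay between them and the wild type array. The knockout mean of 7.33 ± 0.36 (SD, n = 3) was 2.01-fold lower. The fold change came to -1.01 on the log2 scale (SE 0.28, 95% interval -1.67 to -0.35, limma adjusted p = 0.596). Set against Fcer1g on the same arrays, the change of Tyrobp differed by -0.14, 0.29 and 0.04 in knockouts 1, 2 and 3. These differences took both signs, and their mean of 0.06 was smaller than their SD of 0.22, which leaves out the error of the wild type array.

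Trem2, a lipid-sensing receptor that signals through Tyrobp, showed almost no difference between the genotypes. It read 6.19, 6.40 and 6.36 in the knockout hearts, against 6.38 in the wild type heart. The wild type value fell inside the knockout range of 0.21. The log2 fold change was -0.06 (SE 0.18, limma adjusted p = 0.997), and its 95% interval ran from -0.49 to 0.36, so smaller differences in either direction could not be detected with these arrays. Relative to its adaptor, Trem2 stood higher by 1.06, 1.21 and 0.57 in knockouts 1, 2 and 3, which describes an unequal difference of receptor and adaptor on each knockout array.

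Syk, the kinase that docks on phosphorylated ITAMs through its paired SH2 domains, had the tightest knockout values. They were 7.05, 7.11 and 7.13, against 7.55 in the wild type heart. The knockout arrays spanned 0.08 and the highest lay 0.42 below the wild type array. The log2 fold change was -0.45 (SE 0.17, 95% interval -0.85 to -0.05), or 1.37-fold lower, with a limma adjusted p of 0.819. The SE exceeds what the knockout SD of 0.04 alone would give, because limma draws each gene's variance towards that of all genes. On each knockout array Syk stood less far below wild type than Fcer1g, by 0.61, 1.04 and 0.21.

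**Figure D2:**
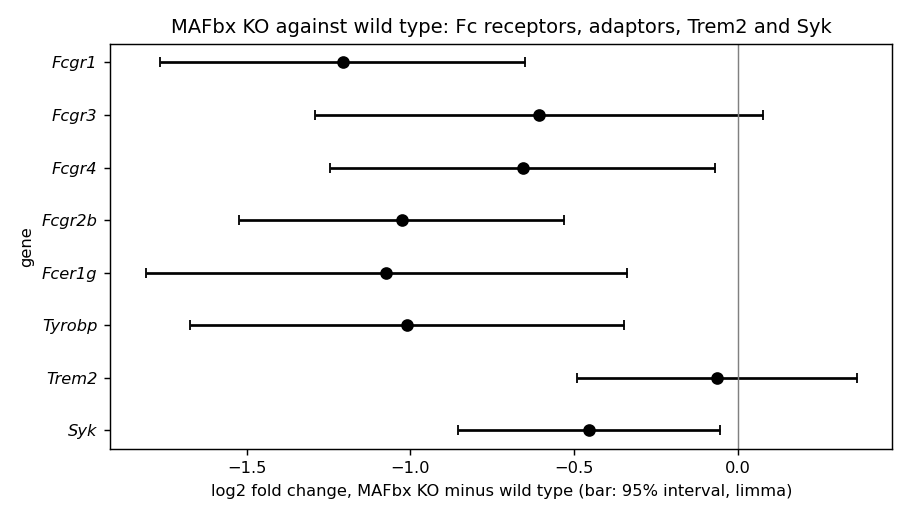
Log2 fold change of each gene, knockout minus wild type, with 95% intervals from limma (3 knockout arrays and 1 wild type array). The intervals of 6 genes lie below 0, while those of Fcgr3 and Trem2 include it, and no gene passed the adjusted threshold.

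Knockout 3 was the highest knockout array for 6 of the 8 genes, the exceptions being Fcgr4 and Trem2, and was the lowest for 0. The order of the other knockouts was split, with knockout 1 lowest for 5 genes and knockout 2 lowest for 3 (Fcgr1, Fcgr3 and Fcer1g). Over all genes tested knockout 3 was the highest in 35.5%. In knockout 3 against wild type 1, the arrays that share low Xist, the differences ran from -0.97 for Fcgr1 and -0.79 for Fcgr2b through -0.63 for Fcer1g and -0.59 for Tyrobp to -0.02 for Trem2. Their median was -0.56, against 0.00 over all genes tested. Genotype and the sex-linked pattern cannot be told apart in the differences of knockouts 1 and 2 from wild type. All knockouts share 1 genotype label. Where knockouts 1 and 2 read below knockout 3, the sex-linked pattern and variation between hearts cannot be told apart.

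Likeness between genes was measured as the root mean square difference of log2 values over the 4 arrays, after each gene was centred on its own mean. This is a description over 4 arrays that share their RNA sources. By this measure Tyrobp was closest to Fcgr2b among the 8 genes (0.11), which ranked 33 of 16707 genes for likeness to Tyrobp. Fcer1g was closest to Fcgr1 (0.14, rank 14), with Tyrobp at rank 25. Among Fcgr1, Fcgr2b, Fcer1g and Tyrobp the differences ran from 0.11 to 0.20. Syk lay about as close to Trem2 (0.18) and to Fcgr4 (0.20), so closeness alone does not set those genes apart. Fcgr4 lay apart from Fcer1g (0.42), although it needs that chain, because knockout 1 was its lowest array and knockout 2 its highest knockout array.

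Outside the family, the genes with profiles most like Fcgr1 were Adam12, a membrane metalloprotease, Cfp, encoding the complement factor properdin, and Steap2, at 0.02 to 0.07. For Fcer1g they were Usp17ld, Ptx3, a long pentraxin, and H2-Aa, an MHC class II chain (0.03 to 0.07). For Tyrobp they were the chemokine gene Ccl12, the Arp2/3 subunit gene Arpc1b and Ptprc, the pan-leukocyte phosphatase CD45 (0.05 to 0.06). Ptprc read 6.15, 6.35 and 6.90 in the knockout hearts, against 7.54 in the wild type heart, the same order of arrays as Tyrobp. The nearest to Fcgr2b were Bst1, Gda and Lrrc59, to Fcgr3 Bin2, Plk3 and Eef1akmt3, and to Fcgr4 Rbm3, Tpm2 and Tmem88b. For Syk they were Wdfy4, Zfp697 and Vmn2r60, and for Trem2, whose profile is nearly level, Minpp1, Fgf14 and Rbm45. Of these Rbm45 ranked 4, since a predicted or accession-only gene in between was skipped.

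Macrophage markers stood lower on the same arrays as the 8 genes. Of 18 tested markers 14 had all 3 knockout arrays under wild type and 0 had them all over it. At an unadjusted p under 0.05 in limma 8 were lower, with 0 past the adjusted threshold. For this list and those below, 24.2% of all genes tested lay under wild type in this way and 24.2% over it. The shares lower and higher at that unadjusted p were 3.87% and 1.72%. The list includes Ptprc, named above as pan-leukocyte, and so is not restricted to macrophages. The median log2 fold change of the 18 markers was -0.70, but -0.46 without knockout 1. Between knockout 3 and wild type 1 it came to -0.25, beside -0.56 for the 8 genes in the same pair of arrays. Their mean level was 7.41, 7.56 and 7.96 in knockouts 1, 2 and 3, against 8.33 in the wild type heart, and none of them was dim. The brightest were Lyz2, encoding lysozyme, and the complement genes C1qb and C1qc, with log2 fold changes of -0.76, -0.46 and -0.30. In these whole-heart samples fewer cells of a type and less RNA per cell cannot be told apart. The part of the marker shift in the results for the 8 genes was not tested.

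Relative to the mean of the macrophage markers, the 8 genes took 3 kinds of position. Fcgr1, Fcgr2b, Fcer1g and Tyrobp lay further below wild type than the marker mean on all 3 knockout arrays. The excess averaged -0.52 ± 0.26 for Fcgr1, -0.34 ± 0.10 for Fcgr2b, -0.39 ± 0.28 for Fcer1g and -0.33 ± 0.10 for Tyrobp (SD, n = 3). Fcgr3 and Fcgr4 stood near the marker mean, at 0.08 ± 0.40 and 0.03 ± 0.25, with both signs among their arrays. Trem2 stood above it on every array, by 0.62 ± 0.24, and Syk by 0.23 ± 0.25, with knockout 3 slightly below. Every difference uses the same wild type array, so the SD leaves out the error of that array. These positions depend on which markers make up the mean.

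**Figure D3:**
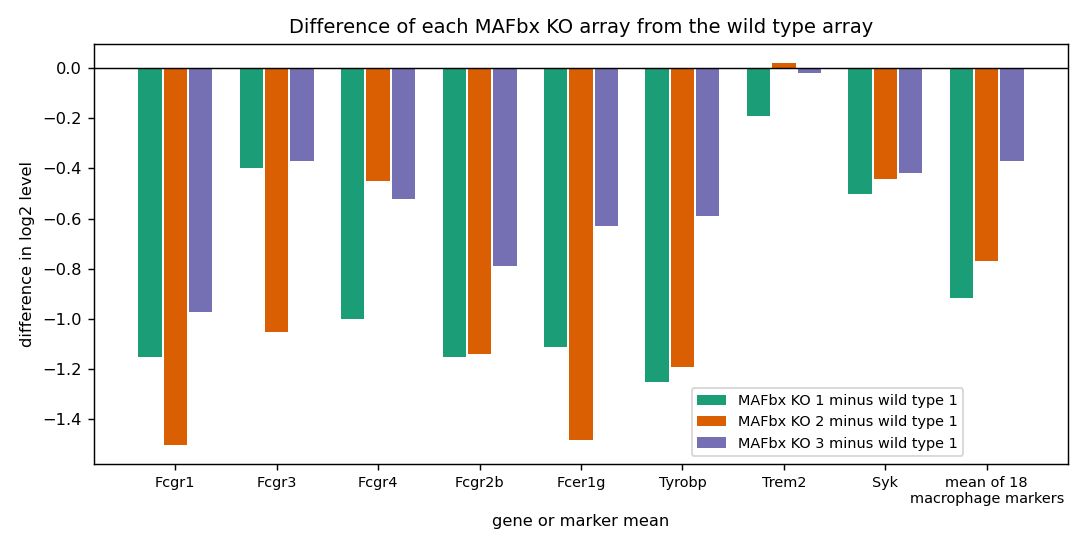
Difference in log2 level of each MAFbx knockout array from the wild type array, for the 8 genes and for the mean of 18 macrophage markers. Bars below 0 mean lower in that knockout heart, and for knockout 3 the marker mean was lower by 0.37 while Fcgr1 was at -0.97.

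Markers of resident cardiac macrophages read much alike in both genotypes. Of 6 (Lyve1, Timd4, Folr2, Vsig4, Cbr2 and F13a1) 1 had all knockout arrays under wild type and 1 had them all over it, and the median was 0.02. Their mean level lay between 7.29 and 7.52 in the knockout hearts, against 7.45 in the wild type heart. F13a1, encoding a coagulation factor subunit, had the smallest p, at -0.55 (limma adjusted p = 0.712). Whether the list differs from the other macrophage markers was not tested.

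Among other cells that use Fc receptors or ITAM adaptors, the markers of mast cells, natural killer cells, neutrophils and B cells gave low signals. Each probe set has its own response, so these levels do not rank cell types by abundance. Mast cells bear the IgE receptor with Fcer1g, and of 8 mast cell markers 4 were under the filter, among them Fcer1a and Ms4a2, the other chains of that receptor, while the tested 4 averaged 4.88 to 5.14 in the knockout hearts, against 5.10 in the wild type heart. Natural killer cells use both adaptors, and 5 of 8 of their markers, Ncr1 included, were under the filter. The tested markers of these cells averaged 4.90 to 5.11 in the knockout hearts, against 4.95. Of 13 neutrophil markers 5 were under the filter, Ly6g included. The other 8 averaged 4.64 to 4.96 in the knockout hearts, against 5.08 in the wild type heart. All knockout arrays were under wild type for 4 of these 8, S100a8 among them. S100a8 had a knockout mean of 4.04, under the filter, against 4.58 in the wild type heart. It thus passed through its wild type value and its mean had to stand lower in the knockouts. Its place among the 4 is therefore no support, and it also enters the neutrophil means. B cells, which rely on Fcgr2b, had a marker mean of 4.85 to 5.13, against 5.05, with Cd79a and Ms4a1 under the filter. The mast cell means include Cma1, at 4.2, 4.2 and 4.41 in the knockout hearts, against 3.9 in the wild type heart, under the filter. Cma1 thus passed through its knockout values and had to stand higher there, which raises the mast cell means in the knockouts. None of these mast cell, natural killer cell, neutrophil and B cell means stood as far below wild type as the macrophage marker mean did on the same array. That comparison cannot set these cells apart from macrophages, because RMA compresses differences of dim genes and these lists were dim. Platelet markers averaged 5.50 to 5.65 in the knockout hearts over a list of 5, against 6.05 in the wild type heart, with a median log2 fold change of -0.19. Named after their values were seen, the chemokine genes Pf4 and Ppbp stood at -1.19 and -1.07, Gp9 at -0.19, Itga2b at -0.12 and Clec1b at 0.20. Monocyte markers averaged 6.71 to 7.18 in the knockout hearts, against 7.49, over 4 tested genes with a median of -0.25, or -0.64 over 6 without the filter on dim signals. Among them, also named after their values were seen, Ccr2, a chemokine receptor, stood at -2.02, Spn at -0.36, Nr4a1 at -0.14 and Ace at 0.17. Lists for the remaining cell types had median log2 fold changes of -0.20 for dendritic cells, 0.04 for T cells, 0.29 for endothelial cells and 0.12 for cardiomyocytes. The fibroblast median was -0.32, but 0.58 in knockout 3 against wild type 1 and 0.04 without knockout 1.

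Downstream of the adaptors, 7 of 27 tested genes for ITAM kinases and signalling were lower and 1 higher at an unadjusted p under 0.05, with 0 past the adjusted threshold. All 3 knockout arrays were under wild type for 17 and over it for 5, and the list median was -0.37, with -0.17 in knockout 3 against wild type 1. Lcp2, the scaffold SLP-76, read 5.77, 5.96 and 6.35 in the knockout hearts, against 6.94 in the wild type heart, which is -0.91 on the log2 scale (limma adjusted p = 0.588). Lat2, a membrane scaffold of myeloid and mast cells, was at -0.79, Vav1, a guanine nucleotide exchange factor of blood cells, at -0.83 and Sh3bp2, a Syk-binding adaptor, at -0.71 (adjusted p = 0.519 to 0.651).

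On the inhibitory side of the pathway, 23 genes were tested for ITIM receptors, phosphatases and other brakes of the Dok and Cbl families. Of these 23 genes 9, a Dok gene among them, were lower and 0 higher at an unadjusted p under 0.05 in limma. The adjusted threshold was passed by 0. The list had a median of -0.43, which for knockout 3 against wild type 1 alone came to -0.20. The 3 knockout arrays were all under wild type for 14 genes and all over it for 2, the phosphatase gene Ptpn11 (0.45) and Ceacam1 (0.21). Pilra, an inhibitory receptor of myeloid cells, read 5.67, 5.31 and 6.41 in the knockout hearts, against 7.44 in the wild type heart, a log2 fold change of -1.64 (SE 0.38). Lilrb4a and Pirb, inhibitory immunoglobulin-like receptors, were at -1.40 and -0.98. Ptpn6, the phosphatase SHP-1 that ITIMs recruit, was at -0.74, and adjusted p for these 4 genes ran from 0.489 to 0.708.

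The list of other receptors that couple to Fcer1g or Tyrobp also held Clec7a and Clec1b, which carry an ITAM-like motif of their own. The list median was -0.58, the value of Clec7a, and -0.27 in knockout 3 against wild type 1. Of 15 tested genes 7, Clec7a among them, were lower and 0 higher at an unadjusted p under 0.05 in limma. The adjusted threshold was passed by 0. The 3 knockout arrays were all under wild type for 13 and all over it for Clec1b alone. Clec1b read 4.01 in the wild type heart, under the filter of 4.10. It thus passed through its knockout values and had to stand higher there. Another 6 genes of the list were under the filter, Trem1 and Clec4e among them. Clec4d, a C-type lectin that pairs with Fcer1g, came nearest to the threshold. It read 4.98, 5.20 and 5.22 in the knockout hearts, against 7.0 in the wild type heart, which is -1.87 on the log2 scale (SE 0.19, limma adjusted p = 0.0576). Pilrb1 and Pilrb2, activating counterparts of Pilra that use Tyrobp, were at -0.67 and -0.74, and Trem3, a mouse relative of Trem2, at -0.74. Trem3 read 3.85, 4.21 and 3.72 in the knockout hearts, against 4.67 in the wild type heart, so it passed the filter of 4.10 through its wild type value and had to stand lower in the knockouts. Its place among the 7 lower genes is therefore no support.

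Among Fc receptors of other kinds, of 9 tested genes, 0 reached an unadjusted p under 0.05 in limma, and the median was -0.04, or -0.35 with a filter at the 50th percentile. The 3 knockout arrays were all under wild type for 3 and all over it for 1. Those of smallest p were Fcrls, an Fc receptor-like gene of mouse macrophages and microglia (-0.73), Fcamr, a receptor for IgM and IgA (0.39), Fcrlb (-0.35) and Fcrl5 (-0.17). Fcamr, the 1 gene all over wild type, read 4.0 in the wild type heart, under the filter on dim signals. It thus passed through its knockout values and had to stand higher there. Fcrls read 6.60, 7.03 and 7.63 in the knockout hearts, against 7.82 in the wild type heart, so knockout 3 nearly met the wild type value. Lymphocyte ITAM chains and Zap70, the lymphocyte relative of Syk, had a median of -0.06 over 6 tested genes, with 0 at an unadjusted p under 0.05 in limma. Their genes of smallest p were Cd3d (-0.30), Cd3e (0.22), Cd3g (0.22) and Cd79b (-0.22).

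Genes that depend on Trem2 in lipid-associated macrophages, as known from mouse microglia and fat tissue, were listed as well. Which heart cells gave their signals was not tested. Of 20 tested genes 6 were lower and 0 higher at an unadjusted p under 0.05, with 0 past the adjusted threshold, and the median was -0.19. It was -0.03 in knockout 3 against wild type 1 and also -0.03 without knockout 1, and -0.31 without knockout 3. The 3 knockout arrays were all under wild type for 9 and all over it for 4, where 24.2% of all genes tested were under and 24.2% over. Gpnmb, a lysosomal glycoprotein, read 6.13, 6.29 and 6.15 in the knockout hearts, against 7.08 in the wild type heart (log2 fold change -0.89, SE 0.18). Lgals3, encoding galectin-3, was at -0.88, Cd63 at -0.78 and Itgax, the CD11c integrin subunit, at -0.66 (limma adjusted p = 0.391 to 0.723 for these 4). Trem2 itself, as given above, was at -0.06.

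**Figure D4:**
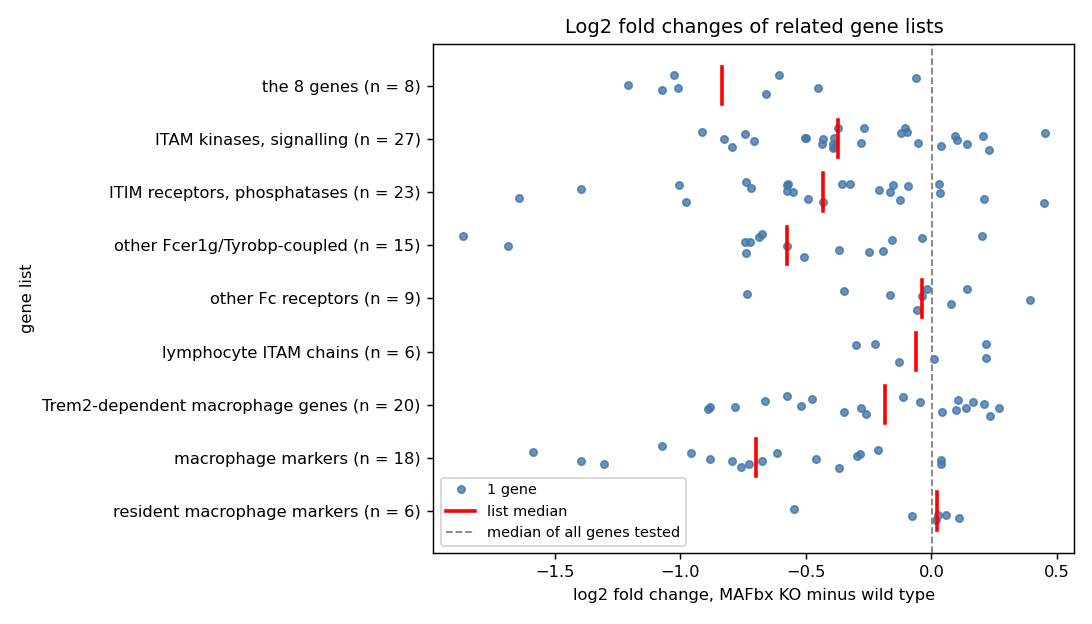
Log2 fold changes, knockout minus wild type, of the tested genes of 9 lists, with 1 point per gene, the list median as a red bar and the median of all genes tested as a dashed line. Medians were -0.83 for the 8 genes, -0.70 for macrophage markers and -0.58 for other coupled receptors, Clec7a and Clec1b included. They lie left of those near 0 for other Fc receptors, lymphocyte chains and resident macrophage markers.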

How the data were processed

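The authors deposited log2 values of Affymetrix Mouse Gene ST arrays, made with Affymetrix Expression Console and RMA, per the submitters' processing notes. RMA corrects background, quantile-normalizes arrays and summarises probe sets, which removes shifts common to most genes and compresses differences of dim ones. Scanner intensities were not analysed here.

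Of 35556 probe sets, 21789 had 1 gene symbol in the platform annotation, 1621 had several and 12146 were unlisted. The probe set with the highest mean represented a gene. The genotype comparison used limma 3.58.1 (R 4.3.3), two-sided, with eBayes and Benjamini-Hochberg adjustment over 16708 genes (threshold 0.05), and had 2 residual and 5.05 prior degrees of freedom. The wild type array is assumed to vary like the knockouts, and 0.25 is the smallest p of an exact permutation of these arrays. Precision is limited by their number.

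The members and lists were chosen with earlier results of these data known. Named beyond the 8 genes were Fbxo32, Xist, Eif2s3y, the 4 genes of smallest p in each pathway list, the 3 brightest macrophage markers and the 3 nearest profiles per gene (predicted and accession-only genes skipped). Single marker genes, Ptpn11, Ceacam1, Clec7a and chromosomal neighbours were named after their values were seen. Lists are described by counts and medians, without a test. The fit was tested on simulated data. Alternatives covered normalization, filter, probe set rule, variance model, high or low Xist as a covariate and leaving out each knockout array.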

Additional observations from a re-analysis of the deposited data

How the results depend on the processing

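Of 87 recomputed log2 fold changes of the 8 genes, 86 kept their sign and their side of the adjusted threshold, and the exception was Trem2, at 0.00 without knockout 1. This count is weak evidence of stability. The alternatives for filter, probe set rule and variance model cannot change these log2 fold changes, because each gene has 1 probe set. With adjusted p from 0.390 upward in the main fit, the side of the threshold had little room to change. Adjusted p for the 8 genes ran from 0.212 to 1 over all alternatives. Leaving out a knockout array gave -1.33 to -1.06 for Fcgr1, -0.73 to -0.39 for Fcgr3, -0.76 to -0.49 for Fcgr4, -1.15 to -0.97 for Fcgr2b, -1.30 to -0.87 for Fcer1g, -1.22 to -0.89 for Tyrobp, -0.11 to 0.00 for Trem2 and -0.47 to -0.43 for Syk. Members at an unadjusted p under 0.05 in limma numbered 6, and 2 to 5 without a knockout array. The fit with high or low Xist as a covariate leaves wild type 1 against knockout 3, so its counts are not given. Members whose knockout arrays all read under wild type numbered 7, and 6 with a filter at the 50th percentile, which drops Fcgr4, and 7 to 8 without a knockout array. Over all genes, 1 passed the adjusted threshold, against 0 with renewed quantile normalization and 8 with median centring. The number was 0 without a filter and 3 with a filter at the 50th percentile. It was 10 with a trended robust variance and 0 when any 1 knockout array was left out. Genes lower at an unadjusted p under 0.05 numbered 646, against 417 with Xist as a covariate and 345 to 1016 without a knockout array. A filter at the 25th percentile over genes, added after seeing the data, gave 1 and 605. Of 206 list medians 187 moved by less than the spread between knockout arrays. With Xist as a covariate the medians equal those of knockout 3 against wild type 1. Causes were not tested. No paired analysis was possible because the groups share 1 replicate number.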

Other observations

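The genes beside the 8 on the chromosome mostly read alike in both genotypes. By the order of protein-coding genes in the RefSeq table, Fcgr2b, Fcgr4 and Fcgr3 follow each other on chromosome 1 with no other measured gene between them, flanked by Fcrla (0.14) and Cfap126 (0.12), given as log2 fold changes, knockout minus wild type. Fcer1g lies further along chromosome 1, between Apoa2 (0.02) and Adamts4 (-0.79), a protease of matrix proteoglycans. Adamts4 read 5.15, 5.16 and 5.78 in the knockout hearts, against 6.15 in the wild type heart. Tyrobp on chromosome 7 stands next to Hcst, the gene of the related adaptor DAP10, which read 4.67, 4.53 and 4.77 in the knockout hearts, against 4.61 in the wild type heart. The neighbouring adaptor genes thus differed in their values, -1.01 for Tyrobp and 0.05 for Hcst. Among 36 measured genes within 3 places of a member, 3 were lower and 0 higher at an unadjusted p under 0.05 in limma (Adamts4, Treml4 and Gadd45g), where 3.87% of all genes were lower, and 0 passed the adjusted threshold. Their median was 0.01. Treml4, in the Trem cluster on chromosome 17, was at -0.48, and Gadd45g, near Syk on chromosome 13, at -1.07. Adamts4, Treml4 and Gadd45g were named for their p, after their values were seen. Nearer neighbours stood at -0.02 (Treml1, beside Trem2) and at 0.03 and 0.58 (Diras2 and Auh, beside Syk).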
